A study of Homo sapiens with 6 samples.

Results

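The cluster described here is a group of microRNA (miRNA) hairpins in an intron of CLCN5, a gene of the X chromosome that encodes a chloride and proton exchanger of endosomes. Its 10 members are mature miRNAs of 7 hairpins, and were taken by name from the 2588 mature miRNAs listed in both count tables. The members are hsa-miR-532-5p, hsa-miR-532-3p, hsa-miR-188-5p, hsa-miR-362-5p, hsa-miR-362-3p, hsa-miR-500a-3p, hsa-miR-501-5p, hsa-miR-501-3p, hsa-miR-502-3p and hsa-miR-660-5p, of which 5 are 5p arms and 5 are 3p arms. The prefix for the species is left out from here on. Small RNAs of A549 cells, a human lung adenocarcinoma line, were sequenced in 2 groups of 3 libraries. All 6 libraries came from cells that carried an inducible knockdown of METTL1, a methyltransferase that makes N7-methylguanosine (m7G), and had been in 200 ng/ml doxycycline for 5 days. The INPUT group held total RNA, and the m7G-RIP group the RNA that an antibody to m7G had pulled down. The knockdown used a lentiviral TET-inducible shRNA under puromycin selection, and which shRNA was sequenced is not given in the sources used here. Libraries of METTL1-proficient cells or of an IgG pull-down were not analysed here, and every comparison is therefore of antibody-bound with total RNA of knockdown cells.

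A miRNA hairpin is cut out of its primary transcript by DROSHA and trimmed by DICER to a duplex of a 5p and a 3p arm, usually with the one arm kept in Argonaute and the other degraded. The arm that is kept finds its mRNA targets mainly through its seed, bases 2 to 8. The CLCN5 hairpins lie on the same strand as their host gene and several have closely related sequences. Earlier work outside these data has tied miR-532-5p to repression of RUNX3, miR-660-5p to MDM2, miR-362-5p to CYLD and miR-501-3p to the glutamate receptor subunit GRIA1. An anti-m7G antibody binds the methylated base wherever it lies in the RNA, so the question asked of each arm is whether it is over- or under-represented after immunoprecipitation when set against the rest of the miRNAs in these libraries.

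The mature sequences show which members are related, and so which comparisons within the cluster are between near copies. They are RefSeq sequences of build GRCh38.p14, written 5′ to 3′ with the seed in capitals. Of the 10 members, 9 had a sequence, and miR-660-5p is named only.
miR-532-5p: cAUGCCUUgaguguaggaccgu
miR-532-3p: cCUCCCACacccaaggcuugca
miR-188-5p: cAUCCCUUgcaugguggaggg
miR-362-5p: aAUCCUUGgaaccuaggugugagu
miR-362-3p: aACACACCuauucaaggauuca
miR-501-5p: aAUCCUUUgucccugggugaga
miR-500a-3p: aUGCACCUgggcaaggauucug
miR-501-3p: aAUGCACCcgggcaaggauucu
miR-502-3p: aAUGCACCugggcaaggauuca

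miR-501-3p and miR-502-3p shared their seed and differed by the substitutions C9U and U22A, with the base of miR-501-3p first and positions counted from 1 at the 5′ end. miR-500a-3p starts a base further in, which gives it another seed. The 3p arms of MIR500A, MIR501 and MIR502 had a stretch of 12 bases in common, GGGCAAGGAUUC, and 9 of these bases were also shared with the 3p arms of MIR500B and MIR362. The 5p arms of MIR362, MIR500A, MIR500B, MIR501 and MIR502 had only 6 bases in common, AUCCUU. Seeds were compared over the 2281 mature miRNAs of the tables that had a sequence. Of the 9 members among them, none shared its seed with more than 1 other. The seeds of miR-532-5p, miR-532-3p, miR-500a-3p and miR-501-5p were shared with none of them.

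The hairpins of the members and MIR500B, the remaining hairpin of the group, lie within 11536 bases of chromosome X, from 50003148 to 50014683 on the plus strand (GRCh38, GENCODE release 44). They fall into a pair, MIR532 at 50003148 to 50003238 and MIR188 at 50003503 to 50003588, followed after a gap of 4842 bases by the other 6. These are MIR500A at 50008431 to 50008514, MIR362 at 50008964 to 50009028, MIR501 at 50009722 to 50009805, MIR500B at 50010672 to 50010750, MIR660 at 50013241 to 50013337 and MIR502 at 50014598 to 50014683. Each lies in an intron of the 3 CLCN5 transcripts that span it, and none overlaps an exon of CLCN5. MIR532 and MIR500A are shown with both mature arms in capitals. They were chosen because the balance of their arms differed between the groups in the test given further on. For MIR500A this difference is a description, since its rarer arm met the limit on mean counts only through INPUT. A stricter filter on counts left MIR500A untested.
MIR532: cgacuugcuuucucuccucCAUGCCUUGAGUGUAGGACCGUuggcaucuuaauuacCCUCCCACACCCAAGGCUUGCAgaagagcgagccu
MIR500A: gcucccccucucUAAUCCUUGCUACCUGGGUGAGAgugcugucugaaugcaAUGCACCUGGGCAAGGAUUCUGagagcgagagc

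INPUT libraries held from 9155690 to 10753443 counts and m7G-RIP libraries from 2649238 to 3106556. METTL1 is not a miRNA, so the knockdown could not be checked in these tables. The culture text of the m7G-RIP samples describes medium for another line, Caco-2, and the cell line label reads A549. Of the 2 epithelial marker miRNAs, miR-200c-3p was counted in every library (243 to 827 counts) and miR-141-3p in 2 INPUT libraries with at most 6 counts. The liver marker miR-122-5p and the blood markers miR-142-5p and miR-223-3p were at 0 in all libraries. The third blood marker, miR-150-5p, had 1, 4 and 3 counts in the INPUT replicates and 0 in m7G-RIP, and the neural marker miR-124-3p had 18 counts in INPUT replicate 3, 2 in m7G-RIP replicate 3 and 0 elsewhere. The summed level of 2 muscle markers, in CPM of the unscaled library totals, ran from 7.54 to 9.65 in INPUT and from 0.644 to 135 in m7G-RIP, where replicate 2 held 260 counts of miR-1-3p. The part of this in the results below was not tested. The titles call the libraries replicates but do not say whether they came from separate cultures, so p-values measure only the spread between these libraries. They also do not say whether INPUT and m7G-RIP libraries came from the same RNA. The groups are separate sets of libraries of unlike depth, so effects of the pull-down and of the library set cannot be told apart.

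The members made up a small part of both groups, 0.169% ± 0.00503 (SD, n = 3) of the counts in INPUT and 0.0993% ± 0.00724 (SD, n = 3) in m7G-RIP. Within the cluster the balance of the members differed between the groups. miR-532-5p held 64.1% ± 1.35 of the members' counts in INPUT and 23.8% ± 1.81 in m7G-RIP (SD, n = 3). miR-501-3p held 8.69% ± 0.344 in INPUT and 27.7% ± 2.71 in m7G-RIP, where it and miR-500a-3p, at 26.4% ± 5.10, were the largest. In INPUT miR-500a-3p held 13.4% ± 0.664 (SD, n = 3). INPUT was thus led by a 5p arm, and the largest mean shares in m7G-RIP were those of related 3p arms, which overlapped with each other. The share of miR-500a-3p also overlapped with that of miR-532-5p. In m7G-RIP replicate 1 miR-532-5p had more counts than miR-500a-3p, 659 against 564, and in replicates 2 and 3 it had fewer. The shares are parts of a whole, so a lower share of miR-532-5p raises the others. The share of miR-502-3p rose from 6.45% in INPUT to 10.5% in m7G-RIP, although it was called depleted in the test given below.

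**Figure D1:**
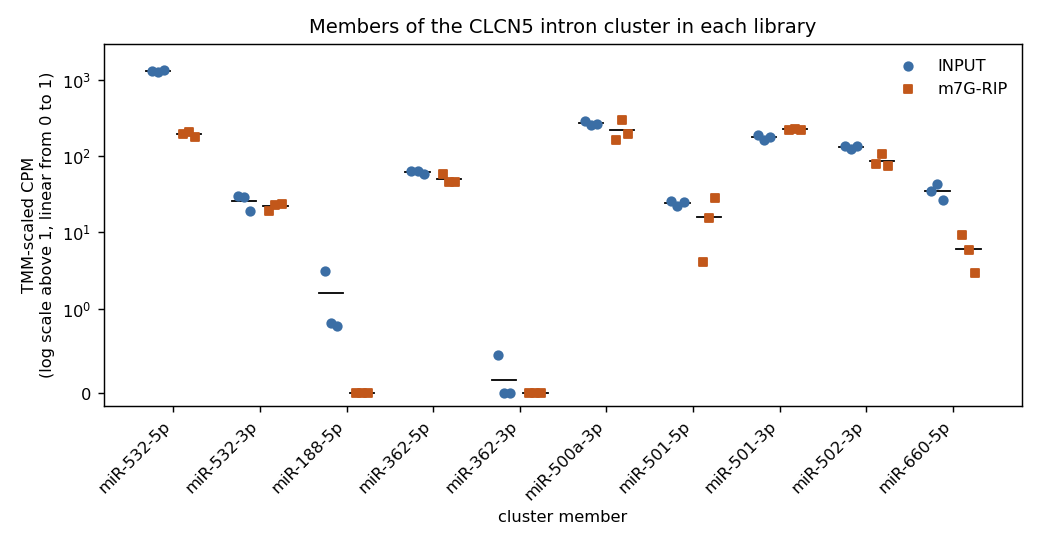
Level of each of the 10 members in every library, in TMM-scaled CPM on an axis that is logarithmic above 1 and linear from 0 to 1. Circles are INPUT libraries, squares are m7G-RIP libraries and black lines are group means; the groups lie furthest apart for miR-532-5p and miR-660-5p among members with counts in both groups, and miR-188-5p and miR-362-3p are at 0 in all 3 m7G-RIP libraries.

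To ask which arms the antibody recovered, m7G-RIP was compared with INPUT by edgeR's quasi-likelihood test over the 620 miRNAs that passed the filter on low counts. CPM given for single miRNAs are scaled between libraries with the trimmed mean of M values (TMM). A log2 ratio below 0 means a lower TMM-scaled level in m7G-RIP, and a miRNA is called enriched or depleted at an adjusted p under 0.05. Of the 10 members, 8 passed the filter, and miR-188-5p and miR-362-3p did not. None of the 8 (0) was enriched, against 23.5% of all miRNAs tested, although DESeq2 and limma-voom each called 1, miR-501-3p, which had an unadjusted p under 0.05 in edgeR. The 3 depleted members were miR-532-5p, miR-660-5p and miR-502-3p, against 29.2% of all miRNAs tested. Of these, 2 were depleted at least 2-fold, as were 25.8% of all miRNAs tested, so neither count stands far from its background. The median log2 ratio of the 8 members was -0.46, and that of all miRNAs tested was -0.07. Over all miRNAs, 146 were enriched and 181 depleted, which became 216 and 141 when libraries were scaled by library size alone, a setting that raised the median log2 ratio of all miRNAs by 0.55.

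By arm, the 4 tested 5p members had log2 ratios from -2.75 to -0.32 with 2 depleted, and the 4 tested 3p members had log2 ratios from -0.60 to 0.35 with 1 depleted. With the other arms of the cluster that passed the filter, 4 of 6 5p arms and 1 of 5 3p arms were depleted. The 5p arms then ran down to -4.90, and no 3p arm lay below -0.60. These counts are a description, since several of the arms are near copies and the 5p arms of MIR500A and MIR500B share their reads. The 5p arms of MIR500A and MIR500B also passed the filter only through INPUT. Of all miRNAs tested, 29.2% were depleted, and a share for each arm over all miRNAs was not computed.

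**Figure D2:**
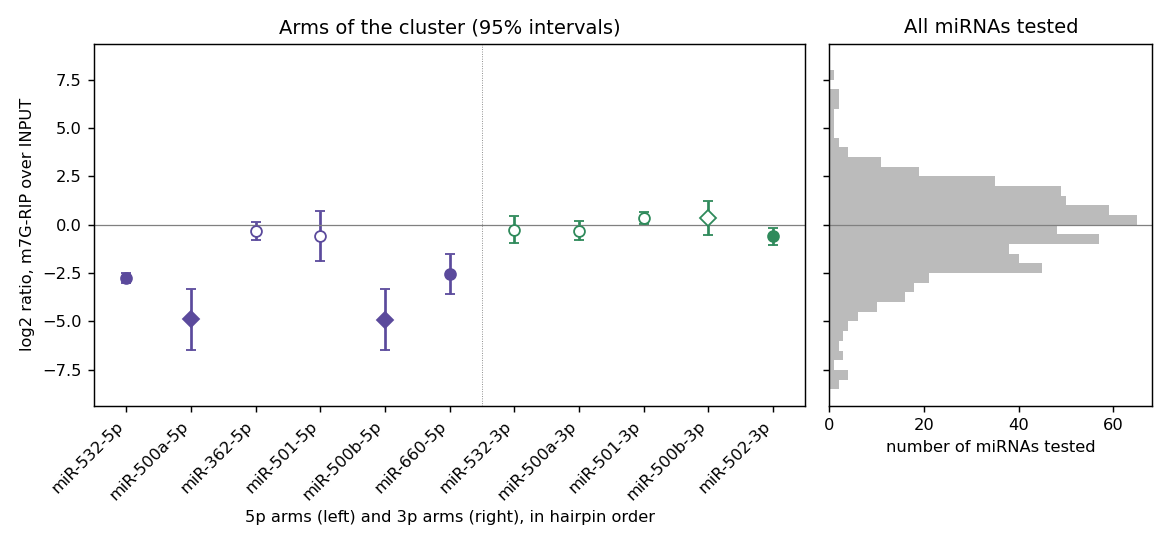
Left, log2 ratio of m7G-RIP over INPUT with its 95% interval for the 11 arms of the cluster that passed the filter, 5p arms in purple and 3p arms in green, each in the order of the hairpins along the chromosome. Circles are members, diamonds are other arms, and filled symbols passed an adjusted p of 0.05 in edgeR; right, the number of all 620 miRNAs tested at each log2 ratio. The 5p arms of MIR532, MIR500A, MIR500B and MIR660 lie between -4.90 and -2.55, and the 3p arms lie between -0.60 and 0.36.

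miR-532-5p was the most abundant member in INPUT and ranked 50 of the 620 miRNAs there. Its level was 1308, 1277 and 1347 CPM in INPUT replicates 1, 2 and 3 and 194, 207 and 182 CPM in the m7G-RIP replicates. Every m7G-RIP library lay far below every INPUT library, and the spread within each group was small against the gap. Groups without overlap in this direction were seen for 36.5% of all miRNAs tested. The log2 ratio was -2.75 (SE 0.12, 95% interval -3.02 to -2.49, edgeR adjusted p 1.95e-07), or 6.74-fold lower in m7G-RIP. It was the 80th lowest of the 620 log2 ratios, and its rank in abundance was 117 in m7G-RIP.

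The other depleted 5p member, miR-660-5p, had a log2 ratio near that of miR-532-5p at a much lower level. It had 35.4, 43.5 and 26.6 CPM in the INPUT replicates and 9.13, 5.96 and 2.94 CPM in the m7G-RIP replicates, from 31, 19 and 11 counts. The groups did not overlap, which held for 36.5% of all miRNAs tested in this direction. The log2 ratio was -2.55 (SE 0.46, 95% interval -3.59 to -1.51, edgeR adjusted p 0.00145), and it was -3.21 without m7G-RIP replicate 1. miR-660-5p and miR-532-5p kept their depleted calls under every alternative run, including each fit that left out a library. The other arm, miR-660-3p, had 0 counts in every library.

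The remaining tested 5p members did not pass the threshold. miR-362-5p had 64.3, 64.3 and 58.2 CPM in INPUT and 58.3, 45.8 and 45.5 CPM in m7G-RIP, and the groups overlapped narrowly. Its log2 ratio was -0.32 (95% interval -0.80 to 0.16, edgeR adjusted p 0.237), so that a depletion as large as that of miR-532-5p lies outside its interval. Without m7G-RIP replicate 1 it was -0.65 and passed the threshold (edgeR adjusted p 0.0277).

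miR-501-5p was even in INPUT and uneven in m7G-RIP. It had 25.7, 22.1 and 25.0 CPM in INPUT and 4.12, 15.4 and 28.6 CPM in m7G-RIP, from 14, 49 and 107 counts. m7G-RIP replicate 1 lay well below and replicate 3 above every INPUT library, a wider spread relative to the group mean than for any other tested member. The log2 ratio was -0.59 (95% interval -1.89 to 0.70, edgeR adjusted p 0.406). Without m7G-RIP replicate 3 it was -1.56 and passed the threshold (edgeR adjusted p 0.0381), and without m7G-RIP replicate 1 it was -0.33, so the value depended on single m7G-RIP libraries.

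miR-188-5p and miR-362-3p were near the limit of detection. miR-188-5p had 28, 7 and 6 counts in the INPUT replicates and 0 in each m7G-RIP replicate. Against a floor of 3 counts per m7G-RIP library, which corresponds to 0.876 CPM on average, its INPUT mean of 1.59 CPM was at least 1.82-fold higher. That bound rested on INPUT replicate 1, since the mean of the others, 0.810 CPM, lay below the floor. miR-362-3p had 4, 0 and 0 counts in INPUT and 0 in each m7G-RIP replicate, so no fold is given. Whether either is depleted was not detectable at this depth.

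Among the 3p members, miR-502-3p passed the threshold on the depleted side. It had 135, 125 and 136 CPM in INPUT and 79.2, 107 and 74.9 CPM in m7G-RIP. Every m7G-RIP library lay below every INPUT library, which held for 36.5% of all miRNAs tested. The log2 ratio was -0.60 (SE 0.20, 95% interval -1.04 to -0.16, edgeR adjusted p 0.0280), or 1.51-fold lower. Among the 620 log2 ratios it was the 253rd lowest. The call was lost without INPUT replicate 1, where the log2 ratio was -0.61 (edgeR adjusted p 0.0634), and with library size alone, where it was -0.05. Without m7G-RIP replicate 2 the log2 ratio was -0.94.

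miR-501-3p, which shares the seed of miR-502-3p, lay on the other side. It had 188, 165 and 179 CPM in INPUT and 224, 229 and 225 CPM in m7G-RIP, so that all m7G-RIP libraries lay above all INPUT libraries, as was the case for 29.5% of all miRNAs tested. The log2 ratio was 0.35 (SE 0.14, 95% interval 0.03 to 0.67, edgeR adjusted p 0.0660) and missed the threshold. It passed with DESeq2 (log2 ratio 0.36, adjusted p 0.0279), with limma-voom (0.35, adjusted p 0.0436) and with library size alone (0.90, edgeR adjusted p 0.000443). The log2 ratio was smaller and further from the threshold without m7G-RIP replicate 1, 2 or 3, at 0.15, 0.17 and 0.14 (edgeR adjusted p 0.417, 0.376 and 0.507), and without a filter, at 0.07 (edgeR adjusted p 0.790). It was above 0 in every alternative run.

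The other 3p members overlapped between the groups. miR-500a-3p had 296, 259 and 268 CPM in INPUT and 166, 299 and 197 CPM in m7G-RIP, where replicate 2 was above all INPUT libraries and the others were below. Its log2 ratio was -0.31 (95% interval -0.81 to 0.18, edgeR adjusted p 0.256), and -0.76 without m7G-RIP replicate 2, where it passed the threshold (edgeR adjusted p 0.00671). miR-532-3p had 30.2, 29.2 and 18.9 CPM in INPUT and 19.1, 22.9 and 23.8 CPM in m7G-RIP, with a log2 ratio of -0.25 (95% interval -0.96 to 0.46, edgeR adjusted p 0.520). With library size alone the log2 ratios of miR-532-3p, miR-362-5p and miR-500a-3p turned to 0.30, 0.24 and 0.23, so no direction is given for these 3.

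The other 6 arms of the cluster hairpins are not members, but miR-500a-5p and miR-500b-5p had the lowest log2 ratios of the cluster. These 2 arms passed the filter on low counts only through INPUT, where they are high, so their depleted calls are a description. With at least 10 counts required in every library, neither was tested. miR-500a-5p had 234, 296 and 186 counts in INPUT and 1, 1 and 8 in m7G-RIP, a log2 ratio of -4.89 (SE 0.69, 95% interval -6.45 to -3.33, edgeR adjusted p 0.000331). Most of its m7G-RIP counts came from replicate 3, and without that library the log2 ratio was -6.67. miR-500b-5p had the same count as miR-500a-5p in 4 of 6 libraries and differed by at most 4 counts, and its log2 ratio was -4.90. The sequence of miR-500b-5p lies whole within that of miR-500a-5p, so the reads of these arms cannot be told apart and count as 1 measurement. miR-500b-3p had a log2 ratio of 0.36 (95% interval -0.51 to 1.24, edgeR adjusted p 0.454), which was -0.27 without m7G-RIP replicate 3. miR-502-5p had 12, 3 and 13 counts in INPUT and 0 in each m7G-RIP library, and miR-188-3p, like miR-660-3p, had no counts.

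The arms of 1 hairpin are made from the same precursor and sequenced in the same library, so the ratio of 5p to 3p counts needs no scaling between libraries. The log2 arm ratio was tested with limma over the 143 hairpins in which both arms had a mean of at least 10 counts, of which 59 changed at an adjusted p under 0.05. In 25 the balance moved towards the 3p arm in m7G-RIP, 17.5% of those tested, and in 34 towards the 5p arm, 23.8%. The median difference over all hairpins was 0.40, towards the 5p arm. Of the cluster's hairpins, MIR532, MIR501, MIR500A and MIR500B could be tested.

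In MIR532 the 5p arm took 98.0% ± 0.498 of the counts of the hairpin in INPUT and 89.8% ± 1.31 in m7G-RIP (SD, n = 3). The log2 ratio of 5p to 3p was 5.43, 5.45 and 6.15 in the INPUT replicates and 3.33, 3.17 and 2.93 in the m7G-RIP replicates. The groups were well apart, and the difference was -2.53 (SE 0.32, 95% interval -3.29 to -1.78, limma adjusted p 0.00100), a 5.79-fold shift towards the 3p arm. miR-532-5p remained the more abundant arm in m7G-RIP.

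In MIR500A the 5p arm took 9.51% ± 2.12 of the counts in INPUT and 0.452% ± 0.541 in m7G-RIP (SD, n = 3). The difference in log2 arm ratio was -4.83 (SE 0.79, limma adjusted p 0.00298). In MIR500B it was -5.48 (SE 0.63, limma adjusted p 0.000623), the second lowest of the 143 differences, but its 5p arm shares its reads with that of MIR500A. In both the 3p arm had more counts than the 5p arm in m7G-RIP. In INPUT the 5p arm of MIR500B was credited with 62.1% ± 5.76 (SD, n = 3), but through the shared reads, so its own share is not known. Both 5p arms met the limit on mean counts only through INPUT. With at least 10 counts required in every library for each arm, neither hairpin was tested.

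In MIR501 the difference was not past the threshold. The log2 arm ratio was -2.87, -2.90 and -2.84 in the INPUT replicates and -5.71, -3.89 and -2.97 in the m7G-RIP replicates. All m7G-RIP libraries lay below all INPUT libraries, replicate 3 only just. The difference was -1.32 (SE 0.71, 95% interval -3.02 to 0.38, limma adjusted p 0.182). It was -1.93 and past the threshold without m7G-RIP replicate 3 (limma adjusted p 0.0430) and -0.56 without replicate 1. Whether MIR501 differs from MIR532 in this respect was not tested.

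**Figure D3:**
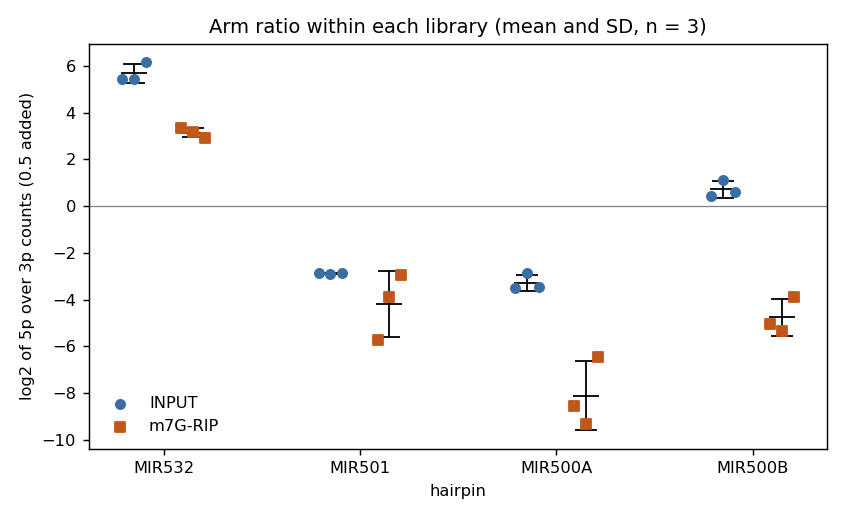
Log2 of the ratio of 5p to 3p counts, with 0.5 added to each, in every library for the 4 hairpins of the cluster that could be tested. Circles are INPUT libraries and squares m7G-RIP libraries, and black bars are the mean and SD of 3 libraries. Values above 0 mean more 5p than 3p counts. The 4 hairpins have lower means in m7G-RIP, and MIR501 did not pass the threshold with all libraries kept. The 5p arms of MIR500A and MIR500B share their reads and met the limit on mean counts only through INPUT.

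The near-identical 3p arms were compared with each other in the same way, as ratios within a library. The count of miR-501-3p over that of miR-502-3p had a log2 of 0.48, 0.41 and 0.40 in the INPUT replicates and 1.498, 1.10 and 1.58 in the m7G-RIP replicates. The groups did not overlap, and the difference was 0.96, or 1.95-fold, between arms that differ at 2 bases (exact two-sided permutation p 0.1, the smallest that 3 against 3 libraries can give, and 0.15 adjusted over the 3 pairs). miR-501-3p over miR-500a-3p had a mean log2 of -0.63 ± 0.042 in INPUT and 0.08 ± 0.42 in m7G-RIP (SD, n = 3; exact permutation p 0.1, adjusted 0.15), again without overlap. miR-500a-3p over miR-502-3p differed by 0.26, and its groups overlapped (exact permutation p 0.2, adjusted 0.2). This test cannot reach 0.05 with 3 against 3 libraries. Per the authors' methods, alignment allowed a mismatch and several positions per read, while the submitters' processing notes list another aligner, Bowtie2. Some reads of these 3 arms may have been counted under a related arm, and how many was not tested.

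**Figure D4:**
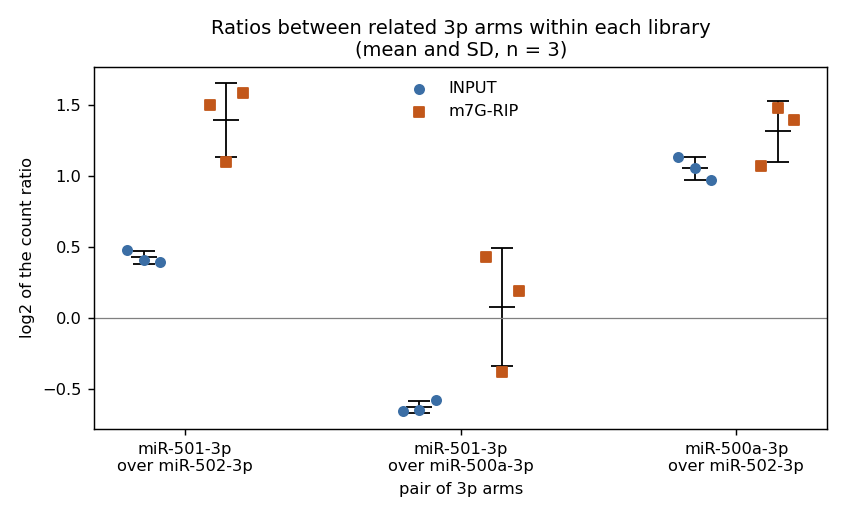
Log2 of the ratio of counts between related 3p arms in every library. Circles are INPUT libraries, squares are m7G-RIP libraries, and black bars are the mean and SD of 3 libraries; miR-501-3p is higher against both of the other arms in all 3 m7G-RIP libraries, and the groups overlap for miR-500a-3p over miR-502-3p.

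The base composition of the members was set beside these values because m7G can only lie at a G. Over the 557 tested miRNAs with a mature sequence, 89.8% of those tested, the log2 ratio had a Pearson correlation of 0.41 with the percentage of G in the mature miRNA. Over the 7 tested members with a sequence it was -0.35, a description over few arms that share sequence. Within MIR532, miR-532-5p has 31.8% G and the lowest log2 ratio of the members, and miR-532-3p has 13.6% G and overlapped between the groups. miR-501-3p and miR-502-3p have the same share of G, 27.3%. A run of GGG was held by 5 of 9 members and by 32.9% of the 2281 mature miRNAs of the tables with a sequence. It was present in miR-501-3p, miR-502-3p, miR-500a-3p, miR-501-5p and miR-188-5p. It was absent from miR-532-5p, miR-532-3p, miR-362-5p and miR-362-3p. Outside the members, miR-500a-5p and miR-500b-5p, with the lowest log2 ratios of the cluster, also held it. Whether the share of G or a run of GGG bears on the log2 ratios of the members was not tested.

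For comparison, 2 other miRNA clusters of the X chromosome were read from the same fit. In the cluster of miR-424, miR-503, miR-450 and miR-542, 3 of 7 tested miRNAs were depleted and 0 enriched, with log2 ratios from -3.23 to 0.93. In the cluster of miR-224 and miR-452, 3 of 4 were depleted and 0 enriched, with log2 ratios from -4.78 to -1.53. Of all miRNAs tested, 29.2% were depleted and 23.5% enriched. Differences between these clusters and the CLCN5 cluster were not tested.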

How the data were processed

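The deposited values are raw counts, whole numbers per mature miRNA, in 2 tables (INPUT and m7G-RIP). Per the authors' methods, adaptors were trimmed with Trimmomatic, STAR mapped reads over their full length to GRCh38 with multi-mapping allowed, and featureCounts assigned them to miRBase annotations. The submitters' processing notes list Bowtie2 as the aligner. How reads with several equal alignments were counted is not given in the sources used here, which bears on near-identical arms. No molecular identifiers were used, so floors cover counting error only. Groups and replicate numbers came from sample titles.

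The test of counts was that of edgeR 4.0.16 (R 4.3.3; TMM scaling, default filter by group, robust quasi-likelihood F test, two-sided, Benjamini-Hochberg over all 620 miRNAs tested). Levels are TMM-scaled CPM. Log2 arm ratios (0.5 added to each count) were fitted with limma 3.58.1 over 143 hairpins. Intervals of log2 ratios use the moderated degrees of freedom. The SE of edgeR log2 ratios was derived from the log2 ratio and its F statistic, so these SEs and intervals are approximate. Ratios of 3p arms used exact permutation. DESeq2 1.42.0 and limma-voom were alternatives. Code was tested on simulated counts. Named miRNAs are the 10 members and the 6 other arms of their hairpins and MIR500B. Members, lists and comparison clusters were chosen with earlier results of these data known. Replicates differed by more than counting noise (chi-square per degree of freedom 22.2 to 112), so all were kept.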

Additional observations from a re-analysis of the deposited data

How the results depend on the processing

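Scaling moved the members together. With scaling by library size alone, or by library sizes that omit the 10 most abundant miRNAs, choices that raised the median log2 ratio of all miRNAs by 0.55 and 0.45, miR-532-3p turned to 0.30 and 0.20, miR-362-5p to 0.24 and 0.15, and miR-500a-3p to 0.23 and 0.13, none of them past the threshold. The number of members enriched was 1 with those choices and with DESeq2 and limma-voom, in each case miR-501-3p, and 0 without any single library. From 2 to 4 members were depleted over all 14 alternatives, leave-one-out fits included. miR-502-3p was the member lost from the depleted calls under both choices of scaling, at -0.05 and -0.14. Without a filter, miR-500a-3p was depleted at -0.61 (edgeR adjusted p 0.00540). miR-532-5p ran from -3.03 to -2.20 and miR-660-5p from -3.21 to -1.98. With each library left out in turn miR-500b-3p ran from -0.27, without m7G-RIP replicate 3, to 0.43, and the cause was not tested. The number of hairpins with a changed arm ratio was between 41 and 68 when a library was left out and 36 when both arms had to have a mean of at least 100 counts, where only 56 hairpins were tested. The arm ratio differences without a library ran from -2.66 to -2.30 for MIR532, from -1.93 to -0.56 for MIR501, from -5.66 to -4.23 for MIR500A and from -5.92 to -5.18 for MIR500B. With 2 added to each count in place of 0.5, the difference was -4.10 for MIR500A and -4.76 for MIR500B. The members and other arms together held 0.175% of INPUT counts.

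Libraries with the same replicate number did not deviate together (correlations -0.04, -0.10 and 0.06, where more than 0.1 was required), so the numbers were not used as pairs. With a replicate block, 122 miRNAs were enriched and 175 depleted, 3 members were depleted and 0 enriched, and 55 hairpins changed their arm ratio. The block changed no call of a member or of the 4 hairpins.

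Depth limits miR-188-5p, miR-362-3p and the 5p arms of MIR500A, MIR500B and MIR502, which had at most 8 counts in any m7G-RIP library.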
